A study of Mus musculus with 12 samples.

Results

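The comparison described here is that of 72 h of high oxygen with room air in newborn mice that received no drug. It uses 6 of the 12 RNA-seq libraries of the study, 3 from saline hyperoxia and 3 from saline room air, chosen by their labels. All were lungs of C57/Bl6 pups that received saline into the peritoneum on day 0, taken after the lavage fluid was removed. Hyperoxia pups then breathed more than 95% oxygen for 72 h, and room air pups served as controls. The other 6 libraries came from pups injected with aurothioglucose (ATG) at 25 mg/kg, a gold drug that blocks thioredoxin reductase, and enter only where a hyperoxia effect is set beside theirs. No gene was altered in any group. Whether the 3 samples of a group came from separate animals or litters is not labelled. By Xist and Y-linked genes saline hyperoxia held both sexes, so its samples did not all come from a single animal. P-values measure only the spread between these samples, which may be technical in part. The 6 libraries held 14331749 to 19267023 counts each.

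The newborn mouse lung is still building its alveoli, so its epithelium, capillaries and supporting cells divide and mature after birth. High oxygen is a standard experimental injury of this stage: oxidants damage DNA, proteins and membranes, cells stop dividing and the growth of alveoli and vessels is disturbed. Cells that lack amino acids or carry damaged proteins can raise ATF4, a transcription factor that binds composite C/EBP-ATF elements. Cells under lysosomal or nutrient stress can raise lysosomal genes through TFEB and TFE3, which bind the CLEAR element.

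Expression is given as CPM, which scales each gene's count to the same library total, here with TMM. A gene is said to have risen or fallen where edgeR's quasi-likelihood test (edgeR QL) gave an adjusted p under 0.05 across the 15761 genes with enough counts of the 23478 in the table. Of these, 740 rose (4.70%) and 709 fell (4.50%) in saline hyperoxia, 1449 or 9.19% in all, and the median log2 fold change over all genes tested was −0.00. The typical change was small: the median was 1.47-fold among the genes that rose and 1.66-fold among those that fell. Changes of at least 2-fold numbered 128 upward (0.812%) and 246 downward (1.56%). Without single libraries the total of 1449 was 973 (room air 1), 889 (room air 2), 740 (room air 3), 955 (hyperoxia 1), 1168 (hyperoxia 2) and 760 (hyperoxia 3). A change is called held below where it passed in the same direction in that fit and in 13 others, which swap the tool or scaling, add a block or the sex of the pup, or leave out libraries. There were 196 held rises (1.24% of genes tested) and 118 held falls (0.749%). Of these 314 genes, 68 belong to lists of p53 targets, NRF2 targets and cell cycle genes, and 246 do not. The cell cycle list leaves out histone genes such as Hist1h1b, so their held falls, described below, are counted among the 246.

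**Figure D1:**
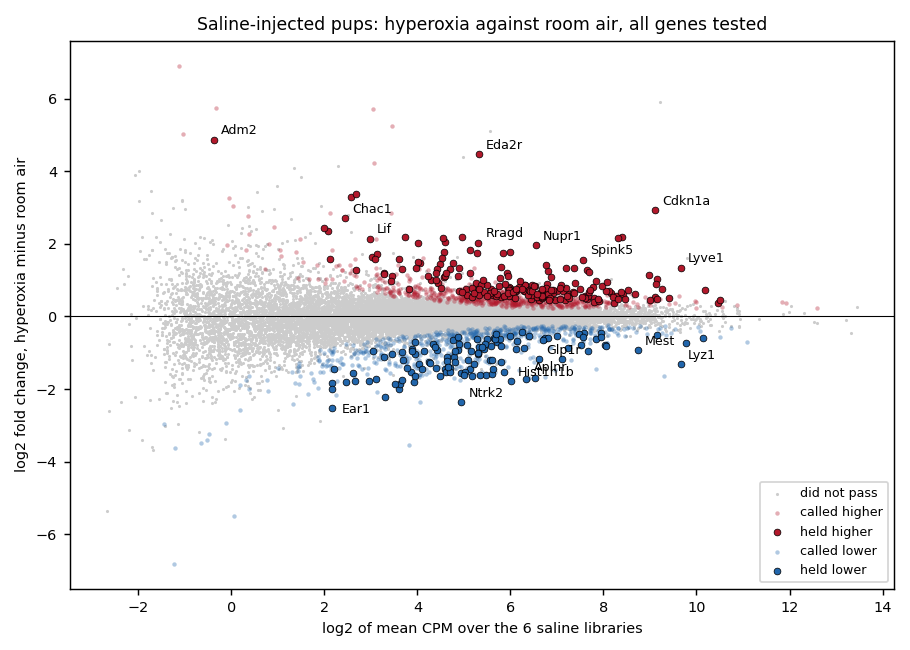
Log2 fold change (hyperoxia minus room air, saline) against the log2 mean CPM of the 6 saline libraries, 1 point per gene tested. Grey genes did not pass, pale genes rose or fell, and outlined genes are the 196 held rises and 118 held falls with Adm2 at the lowest mean level among them.

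The groups separated, and the hyperoxia libraries were the more variable. Pearson's r of log2 CPM across genes was 0.978 to 0.980 between room air libraries and 0.968 to 0.973 between hyperoxia libraries. On the first principal component (34.6% of the variance) room air scored −18.4 to −13.8 and hyperoxia scored 19.3, 23.5 and 5.05. Genes of neighbouring tissues set some libraries apart. The 21 cardiomyocyte markers summed to 791 to 1092 CPM in room air and to 664, 3627 and 581 CPM in hyperoxia 1, 2 and 3. The 18 skeletal muscle markers summed to 34.6 to 42.6 CPM in room air and to 412, 62.5 and 27.3 CPM in hyperoxia, and the 11 thymocyte markers to 115 to 138 CPM and to 108, 242 and 155 CPM. By Xist and Y-linked genes room air held 3 males and hyperoxia 2 females and 1 male. The part of these differences in single results was not tested. Fits with sex as a covariate and without hyperoxia 1 and 2, the muscle-rich and heart-rich libraries, are among the 13 that define a held call; in the latter fit the lone hyperoxia library is assumed to vary like the other groups. Markers of lung cell types were present throughout, while 6 hemoglobin genes were listed at 0 in all libraries.

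Among genes of the integrated stress response the calls were all rises. The share that passed was 39.4%, against 9.19% of all genes tested, and 20 of 33 tested members did not pass. Gene lists were chosen with earlier results of these data known, so their counts describe the members and are no test of a list. Of the 33, 13 rose and 0 fell, 9 of them held, with a median log2 fold change of 0.46. The SE given with a fold change is its size divided by the square root of the test's F. The count was 10 to 11 when any 1 library was left out. Chac1 (chromosome 2, 119351242 to 119354326), an enzyme that degrades glutathione, stood at 0.753, 1.18 and 2.32 CPM in room air and at 6.17, 9.64 and 12.4 CPM in hyperoxia. Its log2 fold change was 2.71 (SE 0.36, edgeR QL adjusted p = 0.000422). Nupr1 (chromosome 7, 126623246 to 126625470), a small stress-induced chromatin protein, stood at 41.7, 39.6 and 32.8 CPM in room air and at 153, 148 and 143 CPM in hyperoxia, a log2 fold change of 1.96 (SE 0.11, adjusted p = 2.97e-07). The rule that named both genes asked that the groups not overlap. Each Nupr1 library in hyperoxia lay more than 3 times above any in room air.

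The ATF4 branch was represented at several steps. Atf4 itself rose modestly, by 0.56 on the log2 scale (SE 0.10, adjusted p = 0.00296), from 80.6 ± 6.96 to 119 ± 7.06 CPM (mean ± SD, n = 3). Trib3, a pseudokinase that is an ATF4 target and feeds back on it, rose by 2.43 from 1.24 ± 0.18 to 6.74 ± 0.386 CPM. Atf5 rose by 1.46, and Slc3a2, the heavy chain shared by several amino acid transporters, by 0.77. Sars, the seryl-tRNA synthetase, rose by 0.70 and was the held one of 4 tRNA synthetase genes that rose among 20 tested, none falling. These 4 are 20% of that list, while 4.70% of all genes tested rose. The remaining held members were Asns, Sesn2, which is also a p53 target, and Rhbdd1, a rhomboid protease. Ddit3, the CHOP transcription factor, rose by 1.57 from 3.17 ± 0.359 to 9.44 ± 1.41 CPM, a call that ended without hyperoxia 1 and 2 together (1.32, adjusted p = 0.0688).

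Chaperones of the endoplasmic reticulum did not move with these genes. Of 22 tested, 1 rose and 3 fell (median −0.13), with 0 to 2 falls when any 1 library was left out. In all 18.2% passed, against 9.19% of all genes tested. The one that rose was Herpud1, which acts in degradation of misfolded proteins, from 41.2 ± 2.52 to 76.9 ± 4.26 CPM (log2 0.90, adjusted p = 0.000664, held). Hspa5, the main chaperone of that compartment, stood at 800, 813 and 882 CPM in room air and at 614, 640 and 694 CPM in hyperoxia. It fell by 0.36 on the log2 scale (SE 0.08, edgeR QL adjusted p = 0.00975), but not past the threshold without room air 3 (−0.31, adjusted p = 0.0627) or hyperoxia 1 (−0.31, adjusted p = 0.0533). Hspa9, the Hsp70 of mitochondria, by contrast rose by 0.89 (SE 0.09, adjusted p = 4.15e-05), from 77.6 ± 6.26 to 144 ± 13.6 CPM. Of 36 proteasome genes, 0 rose and 0 fell by edgeR QL, DESeq2 or limma-voom, and 1 was higher at an unadjusted p under 0.05.

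Promoters of these genes were searched for the letters of the composite C/EBP-ATF element, TGATGCAA, on both strands of the 250 bases before each start site. Sequences and start sites are RefSeq's for GRCm38.p6, and 30 members of the list had one. The element occurred in 6 of these 30 (20.0%) and in 4 of the 13 that rose (30.8%). It occurred in 0.673% of the 12332 tested genes with a promoter and in 0.918% of all 27025 promoters. A second form, TGATGNAAT, where N is any base, occurred in 2 of the 30 (6.67%) and in 0.576% of tested genes. Over all genes that rose the shares were 1.76% for TGATGCAA and 0.351% for TGATGNAAT. The choice of known targets for a list may itself raise the share of an element, so these shares are no test of the factor. The 60 bases around TGATGCAA in 3 of the genes that rose are shown, with the match in capitals (here read as its reverse complement). A match is a description of the letters and not a binding site.
Chac1 (chr2:119351023-119351082, plus strand): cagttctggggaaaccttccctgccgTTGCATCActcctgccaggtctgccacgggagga
Nupr1 (chr7:126625547-126625606, minus strand): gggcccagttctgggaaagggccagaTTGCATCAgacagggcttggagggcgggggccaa
Atf3 (chr1:191183410-191183469, minus strand): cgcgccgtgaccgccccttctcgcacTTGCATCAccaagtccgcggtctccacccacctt
The match begins 193 bases before the start site in Chac1 and 110 bases before it in both Nupr1 and Atf3. Atf3, a stress-induced transcription factor, rose by 1.18 (adjusted p = 0.0368) from 5.38 ± 1.17 to 12.2 ± 2.95 CPM. That call ended with limma-voom (adjusted p = 0.0941) and without room air 1, 2 or 3 (1.27, 1.02 and 1.30), hyperoxia 2 (1.25) or hyperoxia 3 (0.97).

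Calls among genes of lysosomes and autophagy also went in 1 direction. The share that passed was 43.3%, against 9.19% of all genes tested, and 34 of 60 tested members did not pass. Of the 60, 26 rose and 0 fell, with 8 held and a median of 0.37. The count was 18 to 24 when any 1 library was left out and 8 without hyperoxia 1 and 2 together. Rragd (chromosome 4, 32982998 to 33022180), a Rag GTPase that places mTORC1 on the lysosome, stood at 13.7, 15.4 and 17.6 CPM in room air and at 70.2, 60 and 61.6 CPM in hyperoxia. Its log2 fold change of 2.03 (SE 0.15, edgeR QL adjusted p = 4.03e-06) was the largest of the list. Fnip2, a folliculin partner that acts on Rag GTPases, rose by 0.86 from 56.3 ± 3.34 to 102 ± 7.65 CPM.

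The structural parts of the organelle rose by less. Ctsl, a cysteine protease, stood at 215, 205 and 189 CPM in room air and at 340, 348 and 303 CPM in hyperoxia (log2 0.70, SE 0.09, adjusted p = 0.000342). Lamp2, a membrane glycoprotein, rose by 0.52 from 562 ± 37.5 to 804 ± 8.27 CPM. Among the genes of the proton pump that acidifies lysosomes, Atp6v1a rose by 0.63, Atp6v0a1 by 0.46 and the accessory subunit Atp6ap1 by 0.41, all held. Outside the list, the lysosomal peptidase gene Tpp1 rose by 0.67 from 256 ± 21.0 to 408 ± 14.0 CPM. Creg1, a glycoprotein of the endosome and lysosome, rose by 1.34 (SE 0.08, adjusted p = 5.15e-07): 85.2, 82.6 and 80.1 CPM in room air against 220, 193 and 213 CPM in hyperoxia. Tfeb, the transcription factor itself, stood at 11.7 ± 1.42 and 12.7 ± 0.549 CPM and did not pass (0.12, adjusted p = 0.723).

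The CLEAR letters TCACGTG, searched on both strands as above, occurred in the promoters of 12 of 46 list members (26.1%), 6 of the 19 that rose (31.6%), 5.30% of tested genes and 3.58% of all promoters. These letters contain the shorter E-box CACGTG. Over all genes that rose the share of TCACGTG was 8.61% (49 of 569 with a promoter), and over all that fell 3.54%. For CACGTG these shares were 12.5% and 5.13%. Among other patterns searched, the antioxidant element TGACNNNGC occurred in 6 of the 19 list members that rose (31.6%) and 13.7% of tested genes. As above, the choice of list members may itself raise a share. The windows of 4 genes that rose are shown, with TCACGTG in capitals. Its reverse complement CACGTGA can overlap it and is then not capitalised in full.
Atp6v1a (chr16:44139359-44139418, minus strand): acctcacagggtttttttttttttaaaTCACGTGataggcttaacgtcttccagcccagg
Ctsd (chr7:142387894-142387953, minus strand): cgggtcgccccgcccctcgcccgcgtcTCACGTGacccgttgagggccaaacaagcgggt
Ctsa (chr2:164833713-164833772, plus strand): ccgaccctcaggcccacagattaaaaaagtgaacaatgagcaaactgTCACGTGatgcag
Lgmn (chr12:102439110-102439169, minus strand): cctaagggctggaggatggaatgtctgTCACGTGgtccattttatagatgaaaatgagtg
Atp6v1a was held. Ctsd, an aspartic protease, rose by 0.47 (adjusted p = 0.0185) from 495 ± 66.2 to 687 ± 14.5 CPM. Its call ended without room air 2 (0.49) or 3 (0.38) and without hyperoxia 1 (0.47) or 3 (0.49). Ctsa, a carboxypeptidase, rose by 0.36 (adjusted p = 0.00919) and lost its call without hyperoxia 1 and 2 together (0.37, adjusted p = 0.128). Lgmn, an asparaginyl protease, rose by 0.43 (adjusted p = 0.0418), with the call ending without room air 2 (0.48) or 3 (0.32), without any of hyperoxia 1, 2 and 3 (0.39, 0.42 and 0.48) and with sex as a covariate (0.38).

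**Figure D2:**
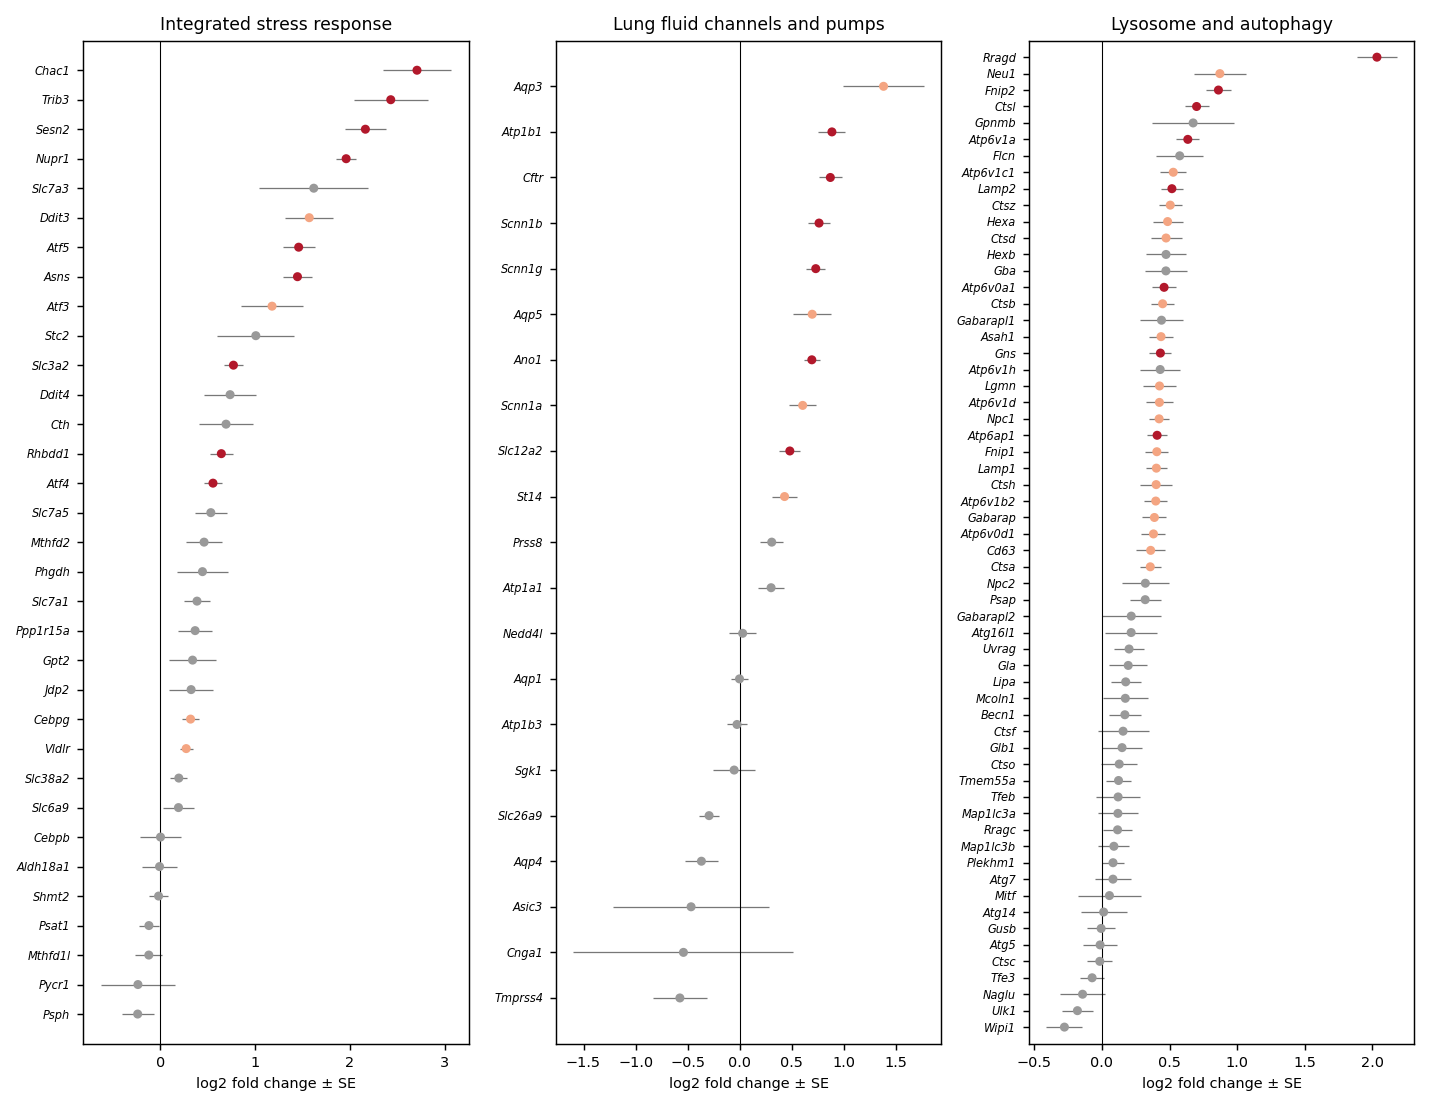
Log2 fold change with its SE for every tested member of 3 lists in saline hyperoxia against room air, 1 point per gene. Dark points are held, pale points rose but were not held and grey points did not pass; 13 of 33 integrated stress genes, 10 of 21 lung fluid genes and 26 of 60 lysosome and autophagy genes rose.

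Calls among channels and pumps that move salt and water across the lung epithelium were all rises. They made up 47.6% of the list, while rises made up 4.70% of all genes tested. Of 21 tested, 10 rose and 0 fell, with 6 held and a median of 0.31, and the count was 6 without room air 3 and 7 to 9 without any other library. Scnn1g (chromosome 7, 121734420 to 121768482), the gamma subunit of the epithelial sodium channel that clears lung fluid, stood at 283, 302 and 248 CPM in room air and at 479, 418 and 486 CPM in hyperoxia. Its log2 fold change was 0.73 (SE 0.09, edgeR QL adjusted p = 0.000342). Scnn1b, the beta subunit, rose by 0.76 from 56.1 ± 5.30 to 95.2 ± 7.91 CPM. Scnn1a, the alpha subunit, rose by 0.60 (adjusted p = 0.00894) from 213 ± 14.5 to 325 ± 65.4 CPM, and did not pass without room air 3 (0.56, adjusted p = 0.0517).

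Genes of chloride secretion, which carries fluid the other way, rose too. Cftr, the chloride channel mutated in cystic fibrosis, stood at 58.5, 54.5 and 56.3 CPM in room air and at 104, 84.1 and 121 CPM in hyperoxia (log2 0.87, SE 0.11, adjusted p = 0.000364). Ano1, a calcium-activated chloride channel, rose by 0.69 (SE 0.07, adjusted p = 8.65e-05), and Slc12a2, the cotransporter that loads cells with chloride, by 0.48. Atp1b1, the beta subunit of the sodium pump, rose by 0.89 from 392 ± 24.1 to 724 ± 83.8 CPM. No hyperoxia library of any of these genes overlapped with room air, as for 1439 of the 1449 genes that passed. Of all genes tested, 14.6% were higher without overlap.

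Markers of the flat alveolar type 1 cell moved upward, and those of the surfactant-making type 2 cell both ways. Of 20 type 1 markers 8 rose and 0 fell (median 0.33; 5 held), with 5 rises without room air 3, hyperoxia 1 or hyperoxia 3. Of 22 type 2 markers 5 rose and 2 fell (median 0.01; 0 held), with 0 to 2 rises without any 1 library other than hyperoxia 2 and 1 fall without any 1 library. Of type 1 markers 40% passed and of type 2 markers 31.8%, against 9.19% of all genes tested. The difference between the lists was not tested. Cldn18, a claudin of alveolar tight junctions, stood at 1237, 1315 and 1135 CPM in room air and at 1620, 1494 and 1687 CPM in hyperoxia, a log2 fold change of 0.38 (SE 0.07, edgeR QL adjusted p = 0.00571). Lmo7 rose by 0.63, Gprc5a by 0.61 and the cytochrome Cyp4b1 by 0.87, the last from 95.9 ± 4.12 to 175 ± 15.1 CPM. Ager, the most used type 1 marker, stood at 424 ± 49.2 and 554 ± 69.4 CPM and did not pass (0.39, adjusted p = 0.0947). It passed with DESeq2 (adjusted p = 0.0315), in the fit of the 6 saline samples alone (0.0454) and with sex as a covariate (0.58, adjusted p = 0.00974). Among type 2 genes, the 2 with the highest mean CPM, Sftpc and Slc34a2, rose, neither of them held. Sftpc rose by 0.24 (adjusted p = 0.0473), from 5840, 5459 and 5766 to 7102, 6440 and 6680 CPM. Slc34a2 rose by 0.39 (adjusted p = 0.0124), from 3183 ± 139 to 4177 ± 246 CPM. Among the 2 falls, Sftpa1, a surfactant protein gene, went down by 0.55 (adjusted p = 0.00738). That call ended only without hyperoxia 1 and 2 together (−0.48). Sftpa1 stood at 1855, 1727 and 1613 CPM in room air and at 1275, 1030 and 1237 CPM in hyperoxia. In whole lung, more cells of a type and more RNA per cell cannot be told apart.

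Markers of the transitional epithelium that appears between type 2 and type 1 cells after injury gave 6 rises and 0 falls among 22 (median 0.34). The count was 2 without room air 2, room air 3 or hyperoxia 3 and 3 without room air 1 or hyperoxia 1. With all libraries 27.3% passed, against 9.19% of all genes tested. Nrg1, a ligand of ERBB receptors, was the held one and rose by 1.16 from 6.03 ± 1.79 to 13.5 ± 2.78 CPM. Krt8, the keratin that names this state, stood at 29.9, 27.8 and 30.2 CPM in room air and at 34.5, 34.0 and 31.2 CPM in hyperoxia, without passing (0.18, adjusted p = 0.515). Cdh1, the E-cadherin of epithelial junctions, rose by 0.44, held. Of 20 ciliated cell markers 0 changed by edgeR QL, with 1 lower at an unadjusted p under 0.05 and 1 lower by DESeq2 and by limma-voom. Among 15 club and secretory markers 1 rose and 3 fell, 26.7% in all (1 fall without room air 1, hyperoxia 1 or hyperoxia 3). The one that rose was Aldh1a1, a retinaldehyde dehydrogenase, from 373 ± 39.6 to 762 ± 27.0 CPM (log2 1.03, adjusted p = 0.000305, held). Cyp26b1, which degrades retinoic acid, fell by 1.12 from 33.9 ± 9.15 to 15.5 ± 3.58 CPM (held). Muc4, a membrane mucin named here after its values were seen, fell by 1.18 from 191 ± 10.7 to 84.2 ± 21.0 CPM (adjusted p = 0.000671, held).

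**Figure D3:**
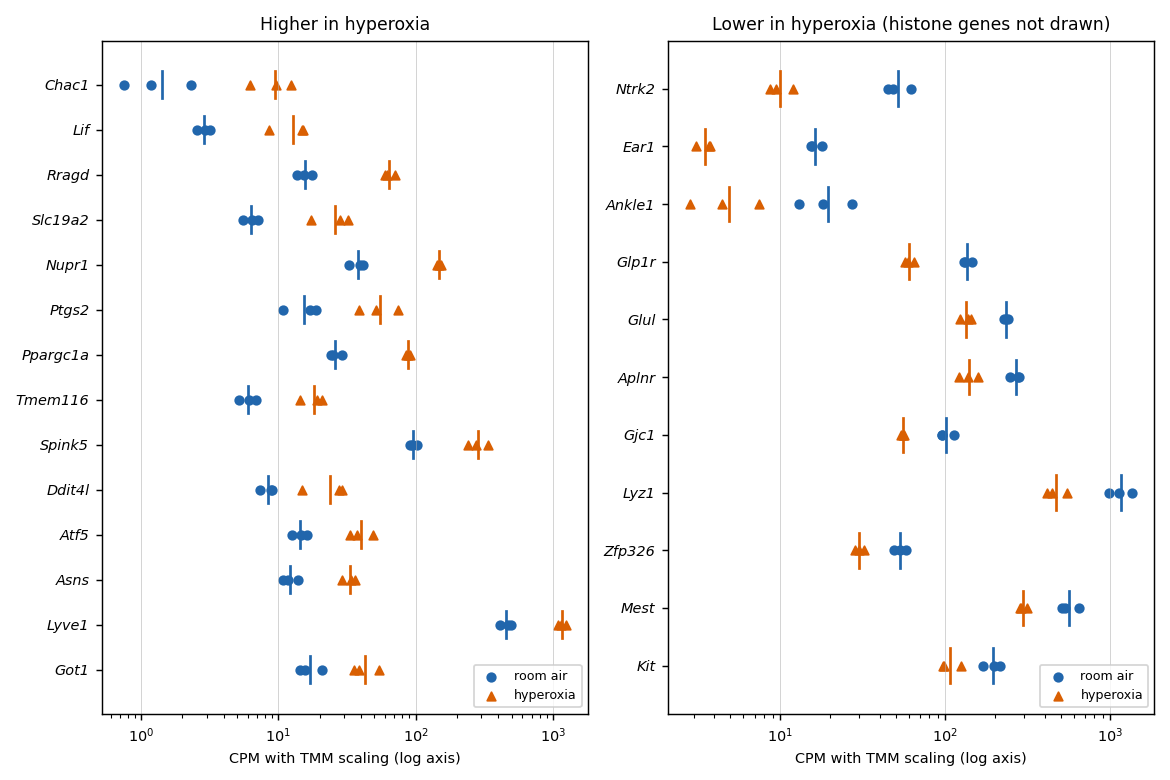
CPM (log axis) in each saline library for the largest held rises (left) and the held falls other than histone genes (right), with circles for room air, triangles for hyperoxia and short lines for group means. The naming rule leaves out p53, NRF2 and cell cycle genes, some of which rose by more. It also asks that the groups not overlap, so the plot shows the size and spread of the changes and not their separation as a result.

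Several of the largest rises lay outside the lists just described. Lif, a cytokine of the interleukin 6 family, stood at 2.94, 3.16 and 2.57 CPM in room air and at 8.49, 15.0 and 14.9 CPM in hyperoxia (log2 2.14, SE 0.28, edgeR QL adjusted p = 0.000371). Slc19a2, a thiamine transporter, rose by 2.02 from 6.37 ± 0.803 to 25.8 ± 7.54 CPM. Ptgs2, the inducible cyclooxygenase that starts prostaglandin synthesis, rose by 1.82 with 18.7, 16.9 and 10.8 CPM in room air and 51.6, 38.7 and 73.8 CPM in hyperoxia. Spink5, an inhibitor of serine proteases, rose by 1.56 from 96.0 ± 5.42 to 283 ± 47.8 CPM. Ddit4l, an inhibitor of mTORC1 signalling, rose by 1.5, Got1, the cytosolic aspartate aminotransferase, by 1.34 and Tmem116 by 1.58. Gpx2-ps1 rose by 1.71, an uncertain value because it is a near-identical copy of Gpx2. Further held rises with small p were Sorl1 (0.74), a sorting receptor, Tob1 (0.85), an antiproliferative protein, Enpp5 (0.82) and Cep170b (0.78). Adm2, a vasoactive peptide of the adrenomedullin family, was under the level asked of named genes and was chosen after its values were seen. It stood at 0.0685, 0 and 0.0628 CPM in room air and at 1.18, 1.41 and 1.83 CPM in hyperoxia (adjusted p = 0.00298, held).

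Lyve1 (chromosome 7, 110850607 to 110862953), a hyaluronan receptor of lymphatic endothelium and of some tissue macrophages, stood at 409, 468 and 494 CPM in room air and at 1146, 1084 and 1246 CPM in hyperoxia. Its log2 fold change was 1.34 (SE 0.11, edgeR QL adjusted p = 1.23e-05). It was the 1 gene that changed among 7 lymphatic markers (median −0.08) and among 23 interstitial macrophage markers (median −0.01). 

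Nuclear genes of mitochondria rose in part. Ppargc1a, the coactivator PGC-1alpha that drives formation of mitochondria, stood at 24.8, 24.4 and 29.0 CPM in room air and at 87.7, 91.2 and 85.0 CPM in hyperoxia, a log2 fold change of 1.75 (SE 0.16, edgeR QL adjusted p = 1.94e-05). Chchd10, a protein of the mitochondrial intermembrane space, rose by 1.25 from 66.9 ± 9.50 to 158 ± 10.5 CPM. Of 76 genes of oxidative phosphorylation 13 rose (17.1%, against 4.70% of all genes tested) and 0 fell, with a median of 0.30. No such call was held, and the count was 8, 6 and 3 without room air 1, 2 and 3, was 12, 5 and 6 without hyperoxia 1, 2 and 3, and was 0 without hyperoxia 1 and 2 together. Cox8a, a subunit of cytochrome oxidase, rose by 0.57 from 126 ± 5.36 to 186 ± 10.3 CPM (adjusted p = 0.00082), with its call ending only in that last fit (0.49, adjusted p = 0.0517). Prkaa2, a catalytic subunit of the energy sensor AMPK, rose by 0.99 from 49.6 ± 1.85 to 98.3 ± 12 CPM (held). Heart muscle is rich in mitochondria, and its markers summed highest in hyperoxia 2, as given above. Their part in these counts was not tested.

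Most iron, metal and oxygen-regulated genes did not pass, and those that did include the ferritins. Of 29 iron and metal genes 6 rose, whichever 1 library was left out, and 2 fell (1 to 2). Ftl1, the light chain of the iron store ferritin, stood at 338, 332 and 266 CPM in room air and at 718, 666 and 692 CPM in hyperoxia (log2 1.15, SE 0.10, edgeR QL adjusted p = 1.33e-05), and Fth1, the heavy chain, rose by 0.76. Ftl1 is also on the list of NRF2 targets. Tfrc, the receptor that imports transferrin, rose by 0.69, and Trf, transferrin itself, fell by 0.58 from 225 ± 14.4 to 151 ± 30.4 CPM, both held. Mt1 rose by 1.20, a value that is uncertain because metallothionein copies are alike. Of iron and metal genes 27.6% passed, against 9.19% of all genes tested. Of 32 genes regulated by HIF and oxygen 6 rose and 2 fell, 25% in all (4 to 6 and 0 to 1 without any 1 library). Among the rises were Bhlhe40, a clock-linked repressor (0.79), and P4ha1, a collagen prolyl hydroxylase (0.55), both held.

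Early response and inflammatory genes gave a mixed picture. Of 34 immediate early genes 7 rose and 1 fell (median 0.42), with 4 held and 4 rises without room air 3 or hyperoxia 3. In all 23.5% passed, against 9.19% of all genes tested. Egr1, a growth-induced transcription factor, stood at 108, 144 and 97.5 CPM in room air and at 280, 170 and 400 CPM in hyperoxia (log2 1.28, SE 0.26, edgeR QL adjusted p = 0.0074). Zfp36, which destabilises cytokine mRNA, rose by 0.76, and Ier5 by 0.52. Icam1, an adhesion molecule for leukocytes, rose by 0.82 from 159 ± 23.2 to 282 ± 26.0 CPM. It was the held one of 4 NF-kB genes that rose among 28, or 14.3% (1 to 3 rises without any 1 library). Cxcl16, a chemokine, rose by 0.87, and Cd55, which protects cells from complement, by 0.74, both held. Of 22 neutrophil markers 0 rose and 3 fell (1 to 2 without any 1 library), against 4.70% and 4.50% of all genes tested. Cd177, a neutrophil surface protein, stood at 40.8, 25.5 and 17.3 CPM in room air and at 4.32, 3.70 and 8.46 CPM in hyperoxia (log2 −2.35, adjusted p = 0.00198), with the call ending without hyperoxia 1 and 2 together (−1.71, adjusted p = 0.111).

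A protease inhibitor and a few matrix genes rose while the bulk of the matrix did not pass. Timp3, an inhibitor of metalloproteinases, stood at 861, 932 and 855 CPM in room air and at 1453, 1347 and 1575 CPM in hyperoxia (log2 0.72, SE 0.09, edgeR QL adjusted p = 0.000342). F3, the tissue factor that starts clotting, rose by 0.82 from 52.8 ± 2.52 to 93.5 ± 6.88 CPM. Efemp1, a fibulin, rose by 0.71, Loxl4, a lysyl oxidase, by 0.99, Ogn, the proteoglycan osteoglycin, by 0.65 and Dag1, the laminin receptor dystroglycan, by 0.44, all held. Of 36 collagen genes 1 rose and 0 fell. Col3a1 stood at 2159, 2057 and 1835 CPM in room air and at 1648, 2436 and 1649 CPM in hyperoxia and did not pass (−0.08, adjusted p = 0.792). Eln, the elastin gene, stood at 1098 ± 82.4 and 1046 ± 116 CPM (−0.07, adjusted p = 0.777). Of 51 WNT, 25 FGF and 19 Notch genes, 2 rose in each list and 1 WNT gene fell, counts that reached 0 for WNT and FGF and 1 for Notch without single libraries. The share that passed was 5.88% of WNT, 8% of FGF, 10.5% of Notch and 2.78% of collagen genes, against 9.19% of all genes tested.

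Histone genes fell together. They were grouped by name (Hist1h to Hist4h) after their values were seen, and many have near-identical copies, so the reads of single genes are uncertain. Of 58 tested, 48 fell and 0 rose, 25 of them held, with a median of −1.24. Over all genes tested 4.50% fell. Their summed level was 2478, 2285 and 2082 CPM in room air and 994, 1303 and 1085 CPM in hyperoxia. Hist1h1b (chromosome 13, 21779832 to 21780625), a linker histone, stood at 99.1, 96.6 and 103 CPM in room air and at 23.2, 35.8 and 27.5 CPM in hyperoxia (log2 −1.79, SE 0.17, edgeR QL adjusted p = 3.17e-05). The replication-linked histone genes are transcribed in S phase, and 138 of 182 cell cycle genes fell in the same libraries, 29 of them held. That count was 76 without room air 3 and 91 without hyperoxia 1 or hyperoxia 3. Ankle1, a DNA endonuclease, fell by 1.99 from 19.5 ± 7.25 to 4.92 ± 2.34 CPM.

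Among the named genes, the largest held falls were in a receptor and in a macrophage ribonuclease. Ntrk2 (chromosome 13, 58806472 to 59133970), the TrkB receptor of the growth factor BDNF, stood at 45.0, 48.2 and 61.9 CPM in room air and at 9.42, 11.9 and 8.71 CPM in hyperoxia. Its log2 fold change was −2.37 (SE 0.19, edgeR QL adjusted p = 8.96e-06). Glp1r, the receptor of the incretin hormone GLP-1, stood at 131, 130 and 146 CPM in room air and at 64.3, 56.8 and 59.2 CPM in hyperoxia (log2 −1.17, SE 0.11, adjusted p = 2.4e-05). Glul, the glutamine synthetase, fell by 0.80 from 233 ± 5.83 to 134 ± 11 CPM, and Zfp326, a zinc finger protein, by 0.83.

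Of the macrophage genes, a few fell and most did not pass. Ear1 (chromosome 14, 43818765 to 43819639), a secreted ribonuclease typical of alveolar macrophages, stood at 15.6, 15.4 and 18.0 CPM in room air and at 3.70, 3.11 and 3.77 CPM in hyperoxia (log2 −2.21, SE 0.20, edgeR QL adjusted p = 1.94e-05). Among 22 alveolar macrophage markers 2 rose and 5 fell (median −0.24, with 3 falls without room air 2 or 3). In all 31.8% passed, against 9.19% of all genes tested. Ear genes are a family of near-identical copies, so their reads are uncertain. Lyz1 stood at 1358, 1131 and 975 CPM in room air and at 411, 543 and 444 CPM in hyperoxia (log2 −1.31, adjusted p = 0.000222). Its neighbour Lyz2, the lysozyme of macrophages and type 2 cells, fell by 0.71 from 2678 ± 283 to 1641 ± 302 CPM (adjusted p = 0.0115) but not without room air 1 (−0.61) or hyperoxia 1 (−0.56). The lysozymes are also close copies.

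Vessel genes fell more often than they rose. Of 40 endothelial markers 8 fell and 1 rose (median −0.11), with 5 falls held and 5 left without hyperoxia 3. Of 39 genes of VEGF, angiopoietin and related signalling 8 fell and 3 rose, with 4 falls held. Of the falls, 5 were left without room air 1, room air 3 or hyperoxia 2 and 4 without room air 2, and of the rises 0 were left without room air 1, room air 3 or hyperoxia 3. Of the endothelial list 22.5% passed and of the signalling list 28.2%, against 9.19% of all genes tested. Aplnr, Calcrl and Plvap are among the genes on both lists. Gja4, the connexin 37 of arterial endothelium, stood at 56.5, 49.4 and 52.8 CPM in room air and at 23.8, 30.8 and 22.6 CPM in hyperoxia (log2 −1.04, SE 0.18, edgeR QL adjusted p = 0.00242). Kit, the stem cell factor receptor of lung capillaries and mast cells, stood at 215, 198 and 168 CPM in room air and at 125, 97.2 and 97.7 CPM in hyperoxia (log2 −0.86, SE 0.11, adjusted p = 0.000383). Vegfc, the lymphatic growth factor, fell by 0.84 from 26.7 ± 1.05 to 14.9 ± 2.86 CPM and Sox17, a transcription factor of arterial endothelium, by 0.75. The other held falls were Aplnr, Calcrl and Stmn2. Kit is also on the list of 9 tested mast cell and basophil markers (median 0.16), whose part in its fall was not tested.

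Single genes of smooth muscle, development and imprinted growth also fell, while most members of these lists did not pass. Actg2, a smooth muscle actin, stood at 123, 134 and 130 CPM in room air and at 90.5, 83.2 and 77.4 CPM in hyperoxia (log2 −0.62, SE 0.08, edgeR QL adjusted p = 0.000446) and was the held one of 3 falls among 18 smooth muscle markers. Of the smooth muscle markers 16.7% passed, against 9.19% of all genes tested. Gjc1, the connexin 45 of muscle and developing vessels, fell by 0.88 and Hoxa2, a homeobox gene, by 0.77. Of 12 markers of pericytes, the contractile cells of capillaries, 0 passed by edgeR QL (median −0.28), but 6 were lower at an unadjusted p under 0.05 and 2 fell by DESeq2 and by limma-voom. Among 25 imprinted growth genes 5 fell and 0 rose, a share of 20%. Of these falls, 3 were left without room air 1, 2 without room air 2, room air 3 or hyperoxia 1 and 1 without hyperoxia 3. Mest, an imprinted hydrolase of growing tissue, stood at 528, 508 and 648 CPM in room air and at 287, 311 and 284 CPM in hyperoxia (log2 −0.93, SE 0.12, adjusted p = 0.000353, held). Dlk1 and Meg3, which lie in 1 imprinted cluster, fell by 1.0 (adjusted p = 0.0159) and 0.97 (adjusted p = 0.0143). Dlk1 did not pass without room air 2 (−0.89) or hyperoxia 1 (−0.97) or 3 (−0.81), nor Meg3 without room air 2 (−0.92) or 3 (−0.96) or hyperoxia 3 (−0.85).

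Interferon-stimulated genes leaned downward with exceptions. Of 63 tested, 6 fell and 2 rose (median −0.30), with 2 falls held and 3 falls left without hyperoxia 1 or 3. Gbp7, a guanylate-binding protein, stood at 64.1, 60.2 and 71.8 CPM in room air and at 45.4, 40.0 and 34.5 CPM in hyperoxia (log2 −0.71, SE 0.12, edgeR QL adjusted p = 0.00224), and Rtp4 fell by 0.95. Isg15, a ubiquitin-like protein, went from 10.4 ± 0.614 to 4.97 ± 1.16 CPM (log2 −1.07, adjusted p = 0.0329). It did not pass without room air 1, 2 or 3 (−1.01, −1.08 and −1.09) or hyperoxia 1 or 3 (−0.94 and −1.0). Ifit3, an RNA-binding antiviral protein, went the other way, from 12, 7.94 and 7.54 CPM in room air to 21.4, 17.4 and 18.8 CPM in hyperoxia (log2 1.07, SE 0.22, adjusted p = 0.00725). Of 26 MHC genes 3 fell and 0 rose (median −0.34), none held, and 0 fell without room air 1, room air 2, hyperoxia 1 or hyperoxia 3. The share that passed was 12.7% of the interferon list and 11.5% of the MHC list, against 9.19% of all genes tested.

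The interferon-stimulated response element was searched as GAAA, any 2 bases and GAAA on both strands of the same windows. It occurred in 22 of 47 promoters of the list (46.8%), against 3.21% of tested genes and 3.46% of all promoters. Here too the choice of list members may itself raise the share. The element was found in genes that fell and in genes that rose, as 3 windows show. Capitals mark matches that do not overlap each other. A further match can overlap these and hold letters in lower case, as the cc of Isg15.
Gbp7 (chr3:142530258-142530317, plus strand): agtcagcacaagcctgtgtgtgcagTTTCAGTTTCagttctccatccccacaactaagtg
Isg15 (chr4:156200850-156200909, minus strand): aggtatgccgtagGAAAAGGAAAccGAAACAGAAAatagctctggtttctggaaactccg
Ifit3 (chr19:34583382-34583441, plus strand): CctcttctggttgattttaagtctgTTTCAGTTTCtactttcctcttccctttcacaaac
The first letter of the Ifit3 window belongs to another match that begins before it. The same 60 bases lie before the neighbouring gene I830012O16Rik, the other interferon-stimulated gene that rose, so reads of this pair are uncertain. Ifit3 did not pass without hyperoxia 1 and 2 together (1.04, adjusted p = 0.0958).

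**Figure D4:**
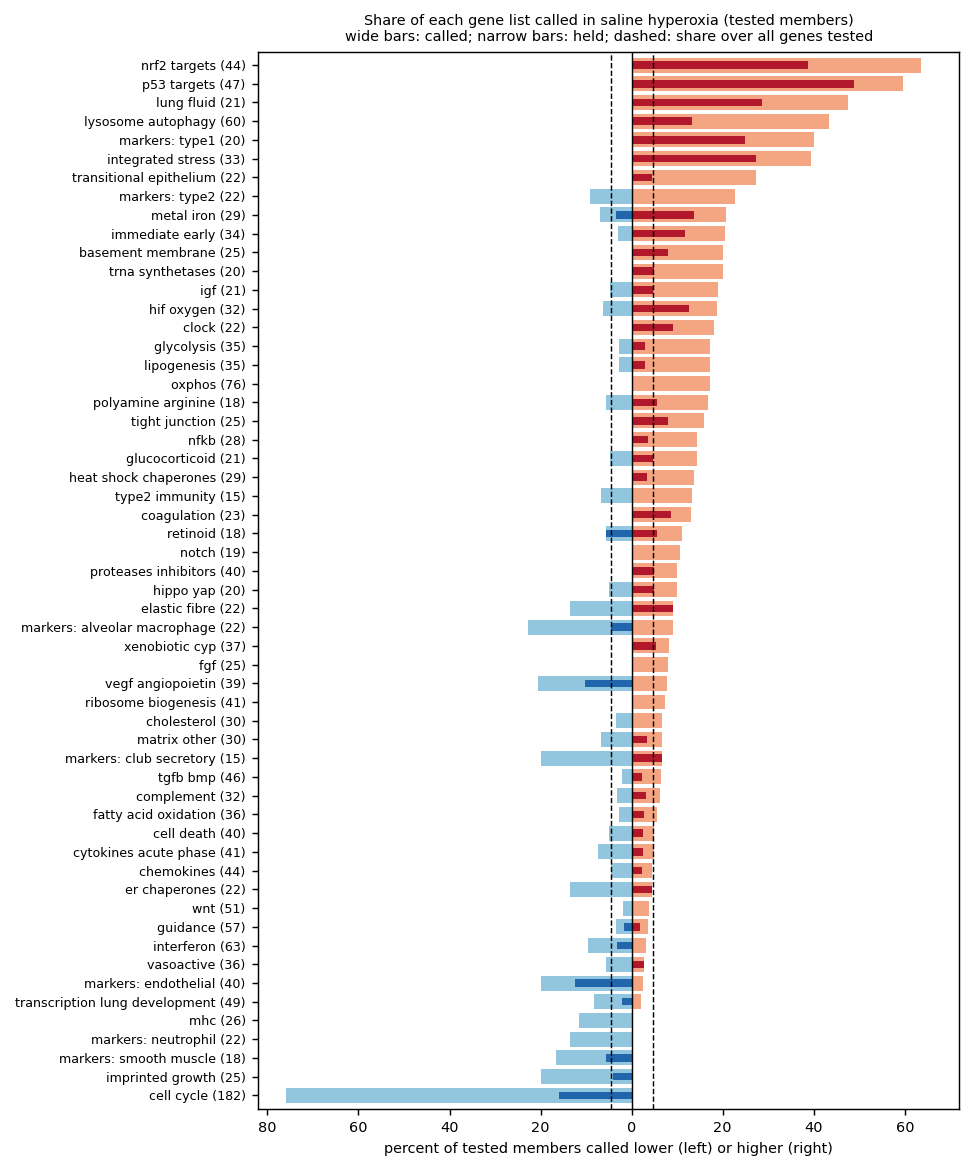
Percent of the tested members of each gene list that fell (left of 0) or rose (right of 0) in saline hyperoxia, with the number tested in parentheses. Wide bars count calls, narrow bars held calls, and dashed lines mark the shares over all genes tested, 4.70% higher and 4.50% lower; lists with at least 15 members tested and 2 calls are drawn.

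The same exposure in ATG-injected pups was measured in 6 other libraries. No library is shared with the saline comparison, but both come from 1 fit, and whether litters or batches were shared is not labelled. There 853 genes rose (5.41%) and 985 fell (6.25%). Of the 740 genes that rose in saline, 506 (68.4%) also rose there, which is 59.3% of the rises in ATG. Of the 709 that fell, 529 (74.6%) also fell, which is 53.7% of the falls in ATG. The sign was shared by 732 of the 740 and 699 of the 709, and 0 genes passed in opposite directions. Of the 314 held genes 297 passed in the same direction.

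The sizes for single genes can be set side by side. Nupr1 changed by 1.96 in saline and 2.11 in ATG on the log2 scale, Rragd by 2.03 and 2.28, Ppargc1a by 1.75 and 1.95 and Ntrk2 by −2.37 and −2.41. Lif changed by 2.14 and 1.33, and Glp1r by −1.17 and −1.46. Cldn18 and Dag1 were held in saline and did not pass in ATG (0.21, edgeR QL adjusted p = 0.0892, and 0.21, adjusted p = 0.0814). The test of the difference between the injections, an interaction term, passed for 0 genes with edgeR QL, DESeq2 or limma-voom, and 465 genes (2.95%) had an unadjusted p under 0.05 with edgeR QL. With 3 libraries a group this does not show that the responses were alike. Pearson's r of the 2 sets of fold changes was 0.57 across all genes tested, which are not independent replicates. Among genes changed in saline the median size of the interaction was 0.13 on the log2 scale.

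**Figure D5:**
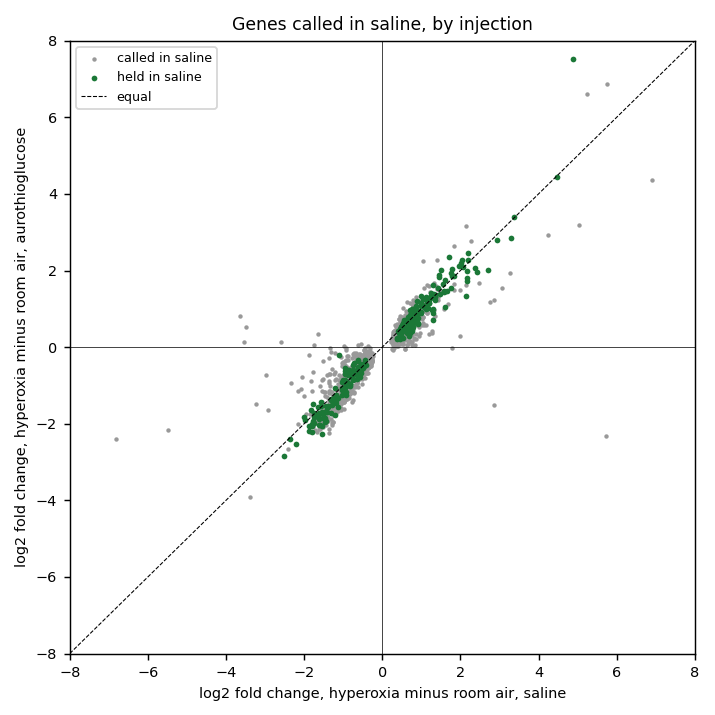
Log2 fold change (hyperoxia minus room air) after aurothioglucose against that after saline for the 1449 genes that rose or fell in saline, with the 314 held ones in green and a dashed line where both are equal. Most points lie at the upper right and lower left, where 732 of 740 rises and 699 of 709 falls in saline share their sign.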

How the data were processed

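RNA was taken from lungs without lavage fluid, amplified to cDNA with the NuGEN Ovation kit, made into Nextera XT libraries and read as paired 75 bp reads, per the labels' protocols. The authors deposited raw counts per gene symbol for 12 libraries. Bowtie2, Cufflinks, DESeq and the build mm10 are named in the submitters' processing notes, while the sources used here do not give the counting tool, strand setting or annotation. Amplified reads are not independent molecules. Total counts were 14331749 to 15916703 in saline room air and 16490223 to 19267023 in saline hyperoxia.

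Genes were kept by filterByExpr (minimum count 10, minimum total 15) and scaled by TMM. The 12 samples were fitted with 1 mean per group by edgeR 4.0.16 (glmQLFit, glmQLFTest; 8 residual degrees of freedom; R 4.3.3), with two-sided p-values adjusted by Benjamini-Hochberg over all 15761 genes and a threshold of 0.05. Every adjusted p in the text is edgeR's unless DESeq2 1.42.0 or limma-voom (limma 3.58.1) is named. The scripts were tested on simulated data. No 2 replicates agreed within sampling noise. Positions are RefSeq's for GRCm38.p6. Members and the 80 gene lists were chosen with earlier results of these data known.

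Named genes are the 15 largest rises and falls among held calls whose groups do not overlap and whose mean CPM is 5 or more, leaving out predicted models, sex-linked genes and members of the p53, NRF2 and cell cycle lists; 10 more each by p; up to 4 held calls per list; and, for lists with none, the 2 members with the highest mean CPM. Other genes not held, and Adm2, Muc4, Tfeb, Krt8 and Ager, were chosen after their values were seen. 1 gene that this rule names is not reported here.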

Additional observations from a re-analysis of the deposited data

How the results depend on the processing

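Counts of changed genes moved more when a single library was left out than when the tool was swapped. Leaving out a library also lowers the number of samples, which swapping the tool does not. The difference therefore does not show dependence on particular libraries. In saline the total of 1449 ran from 740 to 1168, the rises from 410 to 628 and the falls from 330 to 540 when 1 library was left out, with the lowest values without room air 3. Without hyperoxia 1 and 2 together the total was 412, with 243 higher and 169 lower. In aurothioglucose the total ran from 1150 to 2045, the rises from 555 to 955 and the falls from 569 to 1090. DESeq2, limma-voom, RLE size factors, no filter on low counts, sex as a covariate and the fit of the 6 saline samples alone did not move the total, the rises or the falls by over 1.5 times in the comparisons for which each was run. The labels do not say that the replicate numbers pair the samples. Same-numbered room air and hyperoxia libraries in saline had deviations from their group means correlated at 0.05, −0.01 and 0.03. Between saline hyperoxia and ATG hyperoxia the values were −0.02, 0.28 and 0.13, and differently numbered pairs there ran from −0.27 to 0.22. Such correlations cannot exclude a shared litter or batch. With the replicate number as a block the saline total was 1356, with 686 higher and 670 lower, the aurothioglucose total was 1763, and the interaction passed for 0 genes.

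No named gene that passed changed its direction under any alternative run. Of 197 named genes, 173 kept their side of the threshold without hyperoxia 1 and 2 together and 182 to 189 without 1 library. Of the 43 list counts of 3 or more, 7 to 21 moved by over 1.5 times without 1 library, 31 without hyperoxia 1 and 2 together, 6 with sex as a covariate (which differs between the groups), 5 with DESeq2, 3 with limma-voom, 2 with the block, 2 in the fit of the 6 saline samples, 1 without the filter and 0 with RLE size factors. Of 54 list medians over 0.1 in size, 0 to 5 changed sign without 1 library (5 without hyperoxia 2), 8 without hyperoxia 1 and 2 together, 3 with sex as a covariate and 1 each with limma-voom and in the 6-sample fit. With 3 libraries a group, small effects of genes with few counts were not detectable.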
